A study of Mus musculus with 6 samples.

Results

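Transcripts of 10 genes of RNA polymerase II elongation were followed in differentiated muscle cultures with a knockout of Sfpq and in control cultures. The 10 were taken by name: the kinases Cdk9, Cdk12 and Cdk13, their cyclins Ccnt1, Ccnt2 and Ccnk, the elongation factors Supt5 and Supt6, and the DNA topoisomerases Top1 and Top2b. All 10 were found among the 34656 genes of the series, each as a single RefSeq accession, and all 10 were among the 12461 genes that reached a TPM of 1 in 3 or more libraries, which are the genes tested (TPM, transcript abundance corrected for length and scaled to the same total in each library). Myoblasts had been taken from the skeletal muscle of male mice 1 month old, grown in 20% fetal bovine serum with 2.5 ng/mL of the growth factor bFGF, and differentiated for 4 days in 2% horse serum. Sfpq knockout libraries (n = 3, SfpqSM-KO mice) were set against control libraries (n = 3), all from polyA RNA. The sources used here do not give the promoter that drives the deletion or the alleles of the control mice. No label says whether the libraries of a group came from different mice or dishes. The p-values therefore cover the spread among these 6 samples and nothing wider, and part of that spread may be technical.

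RNA polymerase II stops shortly after it starts, held by the factors DSIF and NELF, and is released by P-TEFb, a kinase made of Cdk9 and cyclin T1 or T2. Cdk12 and Cdk13, each bound to cyclin K, phosphorylate the tail of the polymerase further into the gene, while Supt5 (a subunit of DSIF) and Supt6 (a histone chaperone) travel with it. Topoisomerases remove the DNA supercoils that a moving polymerase makes, and Top1 and Top2b are best known from neurons for their part in transcribing very long genes. The series' title names long genes as those that depend on Sfpq, which gives the reason to look at this machinery.

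Sfpq itself was low in the libraries labelled knockout. Sfpq averaged 17.2 ± 2.78 TPM in knockout libraries and 53.01 ± 6.50 TPM in control libraries (SD, n = 3 each), and the groups did not overlap. Its log2 difference of −1.57 had a limma adjusted p of 0.0531, so it too missed the threshold of 0.05. The limma adjusted p passed with a pseudocount of 5 (0.0431) and at a mean TPM of at least 5 (0.0445). It did not pass in the other alternatives. Among these it was 0.178 with no filter, 0.296 with the replicate number as a block and 0.306 without control replicate 3. Defining markers of differentiated muscle were abundant, with a summed level of 73194 to 77654 TPM over 8 genes in knockout and 59055 to 62560 TPM in control. Acta1 and Mylpf made up most of that sum, and Ckm had a log2 difference of −0.22 where the other 7 were above 0. The 4 myoblast markers summed to 889 to 988 TPM in knockout and 576 to 1007 TPM in control. Pax7 and Myf5 were below 0 and Myod1 and Cdh15 above 0 in log2 difference. On the deposited TPM, 0 of the 4 had every knockout library below every control library, beside 15.3% of all tested genes. The reverse held for 0 of the 4, beside 4.27%. After median-of-ratios scaling (described below) 0 were lower throughout and 1 was higher throughout, beside 9.3% and 9.09%. Endothelial, leukocyte, adipocyte and Schwann cell markers each summed to at most 1.46 TPM in any library, with Ptprc and Adgre1 of the leukocyte list at 0 in all 6. Of 6 fibroblast markers 2 were tested, and the list summed to 12.7 to 29.1 TPM in knockout and 36.5 to 83.3 TPM in control. Col1a1 made up most of that sum, at 11.1, 24.9 and 11.6 TPM in knockout libraries and 30.3, 35.9 and 75.9 TPM in control libraries. Col1a2, the other tested gene, overlapped between groups. Of 6 proliferation markers 5 were tested, and these 6 genes summed to 3.34 to 13.8 TPM in knockout and 15.2 to 20.5 TPM in control. In bulk cultures fewer cells of a type and less RNA per cell cannot be told apart. No read depth can be recovered from TPM, which leaves the depth unknown here.

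The 3 genes of P-TEFb are shown with the 250 bases before their annotated starts (RefSeq, GRCm38.p6), since the kinase and its cyclins form 1 complex from 3 separate loci and are the first genes described. Capitals mark a GC box (GGGCGG) or a CCAAT box on either strand, and in Ccnt2 a CCAAT box and a GC box share bases.
Cdk9, chr2:32712785-32713034, minus strand: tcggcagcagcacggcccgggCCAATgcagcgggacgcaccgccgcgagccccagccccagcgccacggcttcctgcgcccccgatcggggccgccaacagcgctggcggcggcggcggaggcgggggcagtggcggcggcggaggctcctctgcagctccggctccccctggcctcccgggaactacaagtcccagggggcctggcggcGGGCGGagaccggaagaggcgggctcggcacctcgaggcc
Ccnt1, chr15:98567737-98567986, minus strand: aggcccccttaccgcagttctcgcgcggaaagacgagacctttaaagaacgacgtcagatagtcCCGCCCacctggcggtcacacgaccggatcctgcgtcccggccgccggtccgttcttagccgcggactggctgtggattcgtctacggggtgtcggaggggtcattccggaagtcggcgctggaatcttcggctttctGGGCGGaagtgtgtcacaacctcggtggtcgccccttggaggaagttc
Ccnt2, chr1:127773914-127774163, plus strand: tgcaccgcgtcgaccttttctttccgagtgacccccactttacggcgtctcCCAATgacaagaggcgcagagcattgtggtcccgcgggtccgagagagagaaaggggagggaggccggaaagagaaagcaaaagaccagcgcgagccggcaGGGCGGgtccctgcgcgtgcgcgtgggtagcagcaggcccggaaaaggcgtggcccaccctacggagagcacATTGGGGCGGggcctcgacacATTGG
The Cdk9 window held 78.8% G or C with 1 GC box and 1 CCAAT box. That of Ccnt1 held 62.8% G or C with 2 GC boxes and 0 CCAAT boxes, and that of Ccnt2 held 64.8% with 2 GC boxes and 3 CCAAT boxes. Over 32851 windows of the same length the median was 52.4% G or C, 32.7% held a GC box and 33.8% a CCAAT box. A TATA box (TATAAA on either strand) was in 12.4% of all windows and in 0 of the 10 windows of the elongation genes. These matches describe letters and are not measured sites. Of the 10 windows, those of Cdk12, Ccnk and Supt6 lie inside the gene spans given below, and those of Cdk13 and Supt5 partly do.

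None of the 10 elongation genes passed the test between genotypes. All 10 differences, taken as knockout minus control on the log2(TPM + 1) scale, lay between −0.24 and 0.08, and 7 were below 0, where 64.5% of all tested genes were. Their median was −0.07, beside −0.07 over all tested genes, and their median size was 0.09, beside 0.14 over all tested genes. The 95% intervals of limma reached from −0.53 at the lowest to 0.44 at the highest, so a change of 1 log2 unit lay outside the interval of each of the 10. At an adjusted p under 0.05 (limma, Benjamini-Hochberg over all genes) 0 of the 12461 tested genes were called higher and 0 lower, a background of 0% in each direction. At an unadjusted p under 0.05 there were 0 of the 10, beside 2.68% of all genes higher and 9.62% lower. Those shares stand for 334 and 1199 genes on the deposited scale, and median-of-ratios scaling gave 702 higher and 729 lower. That scaling divides each library by the median ratio of its genes to their mean profile.

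**Figure D1:**
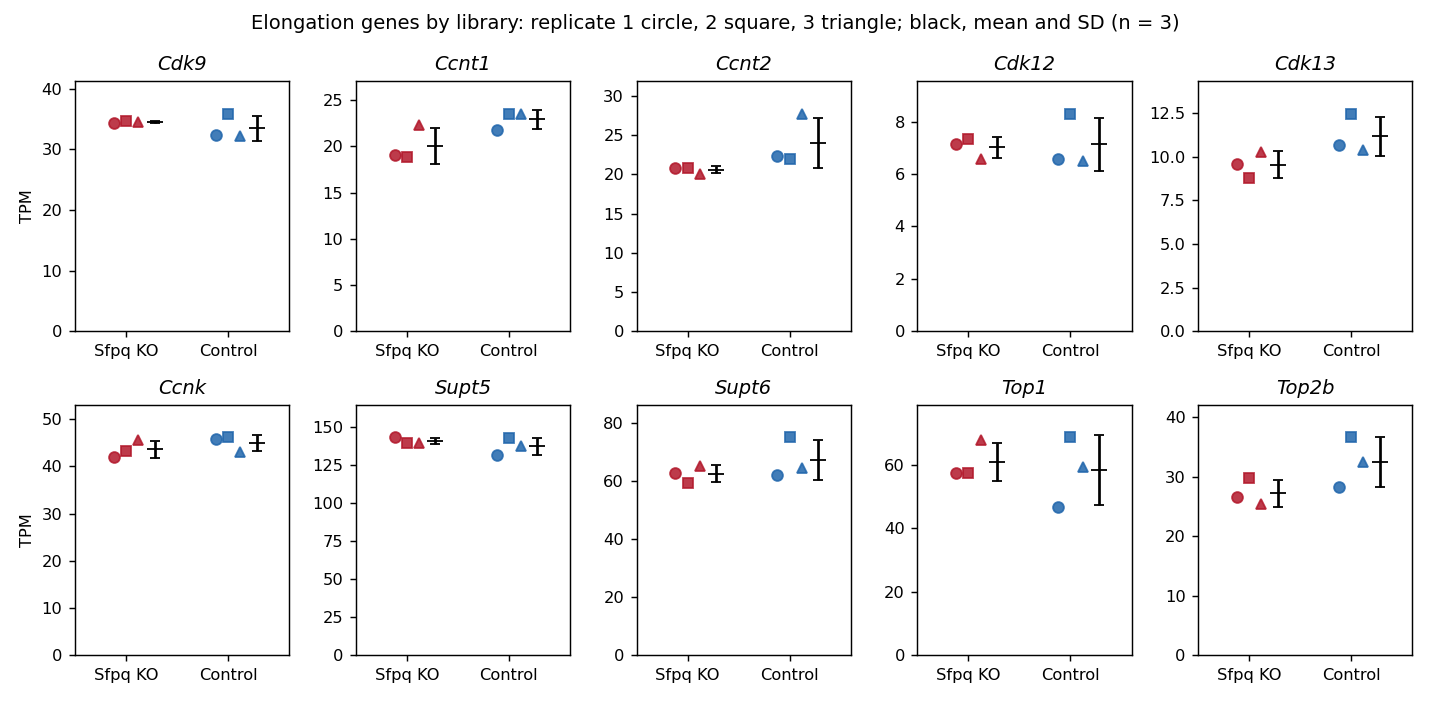
TPM of each elongation gene (y axis, from 0) in the 3 Sfpq knockout libraries (red, left) and the 3 control libraries (blue, right), with the mean and SD in black. The groups overlap for all genes but Ccnt2 and Cdk13, whose knockout points lie just below the control points.

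**Figure D2:**
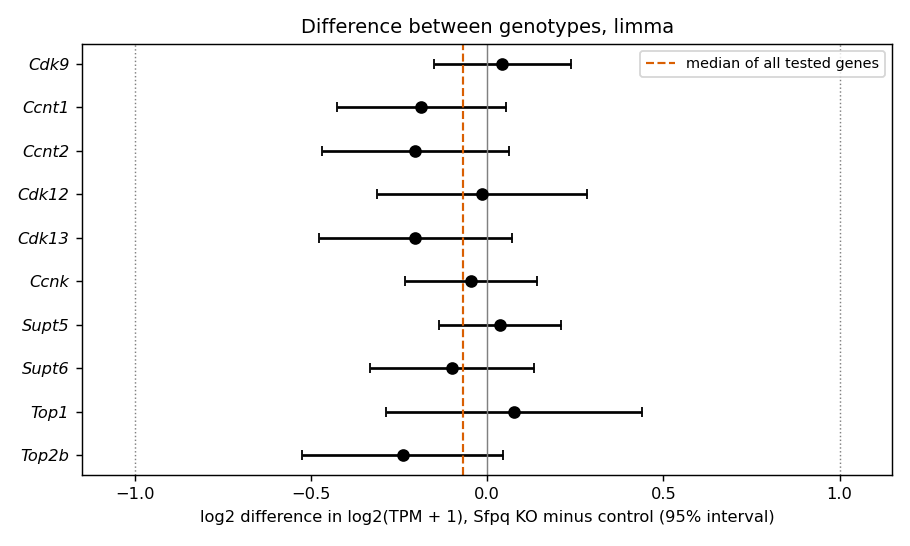
Difference in log2(TPM + 1) between Sfpq knockout and control for each elongation gene (x axis), as a point with its 95% interval from limma. All 10 intervals include 0 and the median of all tested genes (dashed), and none reaches −1 or 1 (dotted).

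Cdk9, the kinase of P-TEFb (chromosome 2, 32705782 to 32712784 in GRCm38, a gene of 7 kb), had the smallest SD of the 10 in knockout. It stood at 34.4, 34.7 and 34.5 TPM in knockout libraries 1 to 3, against 32.4, 35.9 and 32.2 TPM in control libraries 1 to 3. The knockout values lay inside the range of the controls. The log2 difference was 0.04 (SE 0.08, 95% interval −0.15 to 0.24, limma adjusted p = 0.852), and with 1 library left out it ran from 0.02 to 0.09, the highest without control replicate 2. Among 7262 tested genes within 4-fold of its level, the profiles over the 6 libraries nearest to that of Cdk9 were those of Tomm20, Rnf40 and Slc66a1. Their root-mean-square differences from it were 0.0215, 0.0234 and 0.0235 log2 units, beside a median of 0.154 over the genes compared. Tomm20 stood at 35.88, 34.55 and 35 TPM in knockout libraries and at 33.55, 36.4 and 32.98 TPM in control libraries.

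Both T-type cyclins had log2 differences below 0 that did not pass. Ccnt1, cyclin T1 (chromosome 15, 98538690 to 98567736), stood at 19.04, 18.8 and 22.3 TPM in knockout libraries, against 21.7, 23.5 and 23.5 TPM in control libraries. Its knockout replicate 3 lay above control replicate 1, so the groups overlapped. The log2 difference was −0.19 (SE 0.10, 95% interval −0.43 to 0.05, limma adjusted p = 0.493). Ccnt2, cyclin T2 (chromosome 1, 127774164 to 127804837), stood at 20.9, 20.8 and 20.07 TPM in knockout libraries, against 22.3, 21.96 and 27.7 TPM in control libraries. Each knockout library was below each control library and control replicate 3 stood apart from the other controls. The log2 difference was −0.20 (SE 0.11, 95% interval −0.47 to 0.06, limma adjusted p = 0.498), and without control replicate 3 it was −0.10.

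The Cdk12 and Cdk13 kinases are close relatives, and were the least abundant of the 10. Cdk12 (chromosome 11, 98202433 to 98281101) stood at 7.14, 7.34 and 6.56 TPM in knockout libraries, against 6.59, 8.30 and 6.51 TPM in control libraries, so the groups overlapped fully. Its log2 difference was −0.02 (SE 0.13, 95% interval −0.31 to 0.28, limma adjusted p = 0.969). It was 0.05 after median-of-ratios scaling and 0.08 after quantile normalization, so its direction depended on the scaling. Cdk13 (chromosome 13, 17711676 to 17805212, the longest of the 10 at 93.5 kb) stood at 9.60, 8.77 and 10.3 TPM in knockout libraries, against 10.7, 12.5 and 10.4 TPM in control libraries. Each knockout library lay below each control library, the closest being knockout replicate 3 and control replicate 3. The log2 difference was −0.20 (SE 0.11, 95% interval −0.48 to 0.07, limma adjusted p = 0.505), and without control replicate 2 it was −0.13. Ccnk, the cyclin that both kinases bind (chromosome 12, 108179308 to 108203359), stood at 42.05, 43.2 and 45.6 TPM in knockout libraries, against 45.9, 46.2 and 43.1 TPM in control libraries. Those groups overlapped, and the log2 difference of −0.05 (SE 0.08, 95% interval −0.23 to 0.14, limma adjusted p = 0.837) was 0.02 after median-of-ratios scaling and 0.01 after quantile normalization. The span of Ccnk overlaps Setd3 on the opposite strand, and antisense non-coding genes overlap Ccnt1, Supt5 and Top2b. Whether strand was used in the counting is not known here.

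Supt5, the large subunit of DSIF, which holds the paused polymerase and then moves with it (chromosome 7, 28314891 to 28338804), was the most abundant of the 10. It stood at 143, 140 and 140 TPM in knockout libraries, against 132, 143 and 138 TPM in control libraries. The groups overlapped because of control replicate 2, and the log2 difference was 0.04 (SE 0.07, 95% interval −0.14 to 0.21, limma adjusted p = 0.859), and with 1 library left out it ran from 0.01 without control replicate 1 to 0.07 without control replicate 2. Supt6 (chromosome 11, 78206749 to 78245972, overlapping Sdf2 on the opposite strand) stood at 62.9, 59.5 and 65.3 TPM in knockout libraries, against 62.2, 75.2 and 64.5 TPM in control libraries. The groups overlapped, with control replicate 2 the highest of the 6, and the log2 difference was −0.10 (SE 0.10, 95% interval −0.33 to 0.13, limma adjusted p = 0.703). Without control replicate 2 it was −0.02, and without control replicate 1 −0.15.

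Top1, which cuts a single DNA strand (chromosome 2, 160645897 to 160722764), varied most within the control group. It stood at 57.4, 57.5 and 67.8 TPM in knockout libraries, against 46.8, 68.7 and 59.4 TPM in control libraries. The controls spanned the knockout values on both sides. The log2 difference was 0.08 (SE 0.15, 95% interval −0.29 to 0.44, limma adjusted p = 0.862), and without control replicate 1 it was −0.07. Top2b, the form of topoisomerase II in cells that no longer divide (chromosome 14, 16365206 to 16430787), was also below 0 in log2 difference. It stood at 26.6, 29.8 and 25.4 TPM in knockout libraries, against 28.3, 36.6 and 32.5 TPM in control libraries. Knockout replicate 2 lay above control replicate 1, so the groups overlapped. The log2 difference was −0.24 (SE 0.12, 95% interval −0.53 to 0.05, limma adjusted p = 0.466), larger in size than that of 71.9% of tested genes. Without control replicate 2 it was −0.15.

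The 10 genes differed widely in level per length. Supt5 averaged 139 TPM over the 6 libraries, followed by Supt6 at 64.9, Top1 at 59.6, Ccnk at 44.3, Cdk9 at 34.01, Top2b at 29.9, Ccnt2 at 22.3, Ccnt1 at 21.5, Cdk13 at 10.4 and Cdk12 at 7.07 TPM. Supt6 was above Top1 in 5 of 6 libraries, Cdk9 above Top2b in 4 of 6 and Ccnt2 above Ccnt1 in 4 of 6, and these neighbours had overlapping ranges. Top2b was above Ccnt2 in 6 of 6 libraries although their ranges overlapped. The other 5 neighbouring pairs had ranges that did not meet. The 10 genes together held 0.0420% to 0.0437% of TPM in knockout libraries and 0.0409% to 0.0472% in control libraries.

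The count of genes whose groups did not overlap depended on how the libraries were scaled. On the deposited scale 2 of the 10 (Ccnt2 and Cdk13) had each knockout library below each control library, beside 15.3% of all tested genes, and 0 of the 10 had the reverse, beside 4.27%. Control replicate 2 was the highest of the 3 controls for 9 of the 10 genes, and its median-of-ratios factor of 1.07 was the highest of the 6 libraries, which ran from 0.962. The share of all tested genes that were highest in that control was not computed. After median-of-ratios scaling 0 of the 10 were lower throughout, beside 9.3% of all genes, and 2 of the 10 were higher throughout, beside 9.09%. Those 2 were Cdk9 and Supt5. On that scale Cdk9 was at 34.8, 35.5 and 35.8 in knockout libraries and at 33.1, 33.7 and 31.2 in control libraries. Supt5 was at 145, 143 and 145 in knockout libraries and at 135, 134 and 133 in control libraries on that scale. Quantile normalization gave the same 0 lower and 2 higher, beside 8.57% and 8.75% of all genes.

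**Figure D3:**
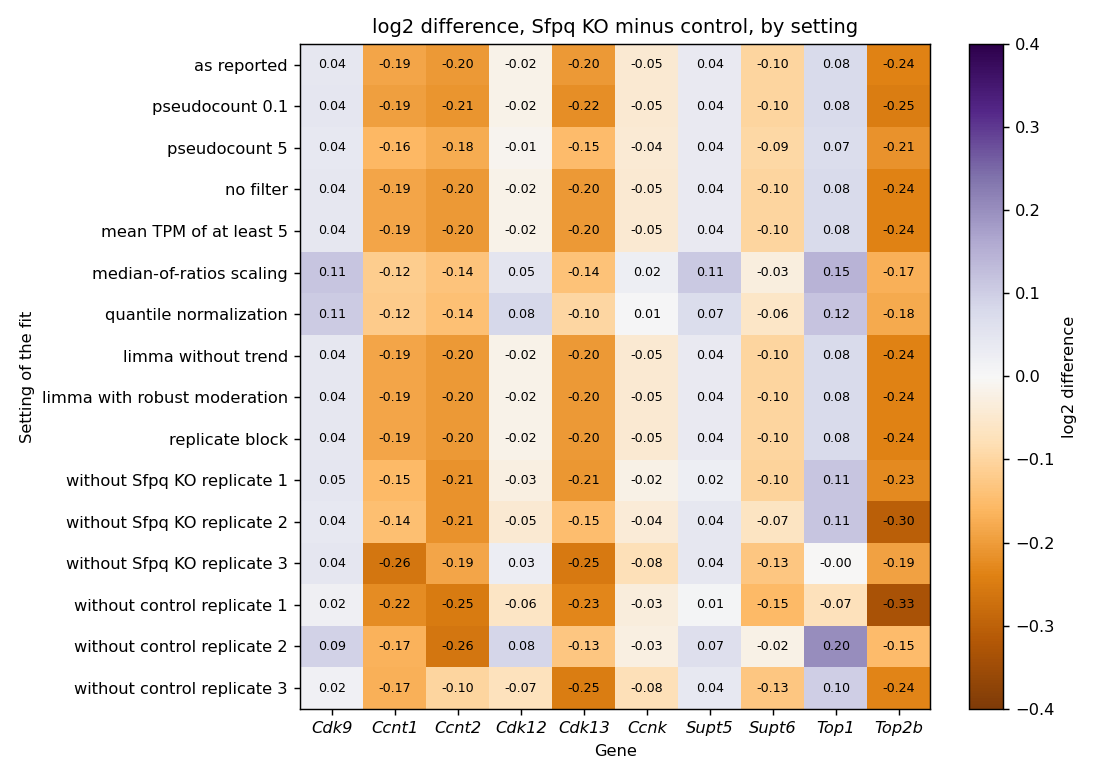
log2 difference between Sfpq knockout and control for each elongation gene (columns) under each setting of the fit (rows), with purple for higher and orange for lower in knockout. Ccnt1, Ccnt2, Cdk13, Supt6 and Top2b stay below 0 and Cdk9 and Supt5 above 0 in all 16 rows, while Cdk12, Ccnk and Top1 change sign.

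Ratios of partner genes within a library do not move when that library is divided by a single factor, as in median-of-ratios scaling. Quantile normalization can move them, and they were not computed after it. The ratio of Cdk9 to the sum of its cyclins Ccnt1 and Ccnt2 was 0.861, 0.875 and 0.813 in knockout libraries, against 0.736, 0.789 and 0.630 in control libraries. Each knockout library was above each control library, and the difference in the log2 ratio was 0.25. The exact 2-sided permutation test gave p = 0.1, and 0.3 after adjustment over the 6 ratios. A p of 0.1 is the smallest that 3 against 3 allows and lies above the threshold used for genes. None of the 6 ratios could therefore pass, and the test cannot decide whether they differ between genotypes. Without control replicate 3 the difference in the log2 ratio of Cdk9 to its cyclins was 0.16.

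The ratio of Top1 to Top2b was likewise apart, at 2.16, 1.93 and 2.67 in knockout libraries, against 1.65, 1.88 and 1.83 in control libraries. The gap was narrow, the closest being knockout replicate 2 and control replicate 2. The share of other gene pairs whose ratios are apart in this way was not computed. The difference in the log2 ratio was 0.32, and without knockout replicate 3 it was 0.20. Its exact permutation p was 0.1 (adjusted 0.3), again the smallest possible, so the test cannot decide here either. Cdk12 over Cdk13 averaged 0.739 ± 0.0994 in knockout and 0.637 ± 0.0250 in control libraries (SD, n = 3 each), and those groups overlapped (exact permutation p = 0.2, adjusted 0.4). The stoichiometry of messages for cyclin K against its kinases overlapped too, at 2.63 ± 0.105 in knockout and 2.48 ± 0.228 in control libraries. Ccnt1 over Ccnt2 was 0.976 ± 0.118 in knockout and 0.964 ± 0.112 in control libraries, and Supt5 over Supt4a, the small subunit of DSIF, was 1.54 ± 0.0766 in knockout and 1.56 ± 0.0950 in control libraries. These last 2 log2 ratios differed by 0.02 and −0.02.

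**Figure D4:**
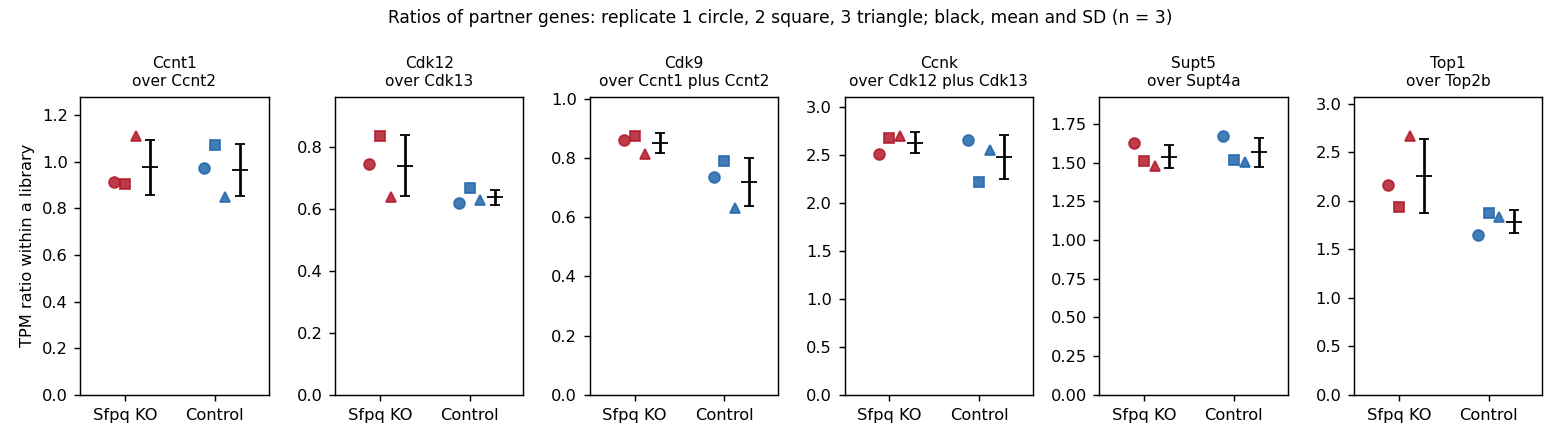
TPM ratio of partner genes within each library (y axis, from 0) in Sfpq knockout (red, left) and control (blue, right), with the mean and SD in black (n = 3 each). Knockout points lie above control points for Cdk9 over its cyclins and for Top1 over Top2b, and the groups overlap in the other 4 panels.

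The rest of the elongation machinery was read from lists of 82 further genes, of which 79 were tested. None passed in limma, and 9 had an unadjusted p under 0.05, where 12.3% of all tested genes did. Of the 79, 17 (21.5%) had each knockout library below each control library and 2 (2.53%) the reverse, beside 15.3% and 4.27% of all tested genes. After median-of-ratios scaling the counts were 10 (12.7%) and 9 (11.4%), beside 9.3% and 9.09%. The median log2 difference of the 79 was −0.06, against −0.07 over all tested genes.

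Among the 8 tested genes that control P-TEFb, 2 were apart lower and 0 higher on the deposited scale, where 15.3% and 4.27% of all tested genes were. After median-of-ratios scaling 1 was lower and 3 were higher, beside 9.3% and 9.09%, and the list median was 0.02 before that scaling and 0.09 after it. Hexim1, which keeps P-TEFb inactive on the 7SK RNA and was picked after its values were seen, averaged 59.3 ± 4.03 TPM in knockout and 59.03 ± 6.33 TPM in control libraries. Larp7, which binds 7SK, stood at 25.2, 22.6 and 22.4 TPM in knockout libraries, against 18.95, 23.2 and 20.3 TPM in control libraries, with overlap. Brd2, a bromodomain protein that binds acetylated histones, stood at 78.97, 65.6 and 67.2 TPM in knockout libraries, against 80.5, 90.7 and 90.1 TPM in control libraries. Those groups did not overlap (log2 difference −0.30, limma adjusted p = 0.335), and its span overlaps H2-DMa on the opposite strand.

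In the super elongation complex, which carries P-TEFb to the polymerase, Ell2 had the smallest p of all the machinery. Ell2, an elongation factor that raises the speed of the polymerase, stood at 13.3, 15.3 and 13.2 TPM in knockout libraries, against 20.1, 26.6 and 22.5 TPM in control libraries. The lowest control lay above the highest knockout library. The mean in knockout was 0.605 times that in control and the log2 difference was −0.68 (SE 0.13, 95% interval −0.98 to −0.38), which did not pass over all genes (limma adjusted p = 0.153). Mllt3, a chromatin reader of the complex, stood at 20.2, 16.4 and 19.2 TPM in knockout libraries, against 23.9, 21.3 and 23.7 TPM in control libraries (log2 difference −0.29, limma adjusted p = 0.368). Eaf1, a partner of the Ell proteins, overlapped between groups (log2 difference −0.21, limma adjusted p = 0.461). Of 10 listed genes 7 were tested, 2 of them apart lower on the deposited scale (15.3% of all genes) and 1 after median-of-ratios scaling (9.3% of all genes).

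Of the 6 pausing genes (Supt5 included), 1 was apart higher and 0 lower on the deposited scale, beside 4.27% and 15.3% of all genes, with a median log2 difference of 0.03. After median-of-ratios scaling 3 were higher and 0 lower, beside 9.09% and 9.3%, with a median of 0.10. Nelfe, the RNA-binding subunit of NELF, stood at 56.8, 60.4 and 54.5 TPM in knockout libraries, against 47.1, 46.3 and 48.5 TPM in control libraries. All knockout values were above all control values, with a log2 difference of 0.27 (SE 0.08, 95% interval 0.08 to 0.45, limma adjusted p = 0.289). The NELF subunits Nelfa and Nelfb overlapped between groups, with log2 differences of −0.10 and −0.07, and the span of Nelfa overlaps Nsd2. Nelfa was at 0.02 without control replicate 2, and Nelfb at 0.00 after median-of-ratios scaling.

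The PAF1 complex, which rides with the polymerase and helps modify histones behind it, had 6 of 6 log2 differences below 0, as did 64.5% of all tested genes, and 3 genes apart lower, beside 15.3% of all. Ctr9, its scaffold, stood at 21.8, 21.7 and 20.2 TPM in knockout libraries, against 25.2, 28.7 and 24.6 TPM in control libraries (log2 difference −0.29, limma adjusted p = 0.329). Cdc73 stood at 8.29, 7.62 and 7.65 TPM in knockout libraries, against 9.28, 9.96 and 9.23 TPM in control libraries (log2 difference −0.24, limma adjusted p = 0.385), with B3galt2 overlapping on the opposite strand. Wdr61 stood at 39.8, 38.6 and 36.2 TPM in knockout libraries, against 40.7, 43.8 and 44.6 TPM in control libraries (log2 difference −0.17, limma adjusted p = 0.459). The list median was −0.13 on the deposited scale and −0.06 after median-of-ratios scaling, and 3 genes were apart lower on the second scale too, beside 9.3% of all genes.

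Of 13 RNA polymerase II subunits 3 were apart lower and 0 higher, beside 15.3% and 4.27% of all tested genes. After median-of-ratios scaling 2 were lower and 1 was higher, beside 9.3% and 9.09%. Polr2a, the catalytic subunit whose tail Cdk9 and Cdk12 phosphorylate, stood at 36.6, 33.8 and 40.5 TPM in knockout libraries, against 45.1, 52.2 and 45.03 TPM in control libraries. The groups were apart, with a log2 difference of −0.35 (SE 0.11, 95% interval −0.60 to −0.10, limma adjusted p = 0.299). Polr2b, the second largest subunit, stood at 39.4, 37.8 and 38.4 TPM in knockout libraries, against 41.01, 44.99 and 46.1 TPM in control libraries (log2 difference −0.19, limma adjusted p = 0.418), with Igfbp7 overlapping on the opposite strand. Polr2m, a subunit of a form of the polymerase that needs Mediator, stood at 197, 225 and 205 TPM in knockout libraries, against 273, 243 and 264 TPM in control libraries (log2 difference −0.31, limma adjusted p = 0.282). The other 10 subunits overlapped between groups, and the list median was 0.02 on the deposited scale and 0.09 after median-of-ratios scaling.

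All 10 histone chaperone and chromatin genes (Supt6 included) had log2 differences below 0, where 64.5% of all tested genes did, with a median of −0.12 (−0.05 after median-of-ratios scaling). On the deposited scale 1 was apart lower and 0 higher, beside 15.3% and 4.27% of all genes, and after median-of-ratios scaling 0 were lower and 1 higher, beside 9.3% and 9.09%. The gene apart lower on the deposited scale was the histone methyltransferase Setd2, at 13.8, 13.4 and 12.9 TPM in knockout libraries, against 14.1, 17.4 and 14.2 TPM in control libraries (log2 difference −0.17, and −0.08 without control replicate 2). Ash1l, whose span overlaps Dap3, and Chd1 overlapped between groups, with log2 differences of −0.24 and −0.17. Of 10 TFIIS, elongin and related genes 3 were apart lower (2 after median-of-ratios scaling), beside 15.3% and 9.3% of all genes. The 3 were Tcea1, Scaf4 and Phf3, with log2 differences of −0.20, −0.19 and −0.13 and limma adjusted p of 0.488, 0.517 and 0.589. The span of Tcea1 overlaps Gm37988 on the same strand. Among 15 kinases and phosphatases of the polymerase tail, 1 was apart lower and 1 higher on the deposited scale, beside 15.3% and 4.27% of all genes. After median-of-ratios scaling 1 was lower and 2 were higher, beside 9.3% and 9.09%. The phosphatase Ctdp1 was apart lower at 10.98, 10.02 and 11.4 TPM in knockout libraries, against 12.6, 14.5 and 12.4 TPM in control libraries (log2 difference −0.26, limma adjusted p = 0.389). The kinase Cdk10 was apart higher (log2 difference 0.13, limma adjusted p = 0.522) with Gm20388 overlapping on the same strand, and the phosphatase Ctdsp2 overlapped between groups (log2 difference 0.14).

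Among the other topoisomerases, Top2a, the form of dividing cells, stood at 0.69, 4.74 and 1.77 TPM in knockout libraries, against 5.79, 4.09 and 4.27 TPM in control libraries, with knockout replicate 2 inside the control range (log2 difference −0.92, SE 0.42, limma adjusted p = 0.431). The difference was −0.51 without knockout replicate 1 and −1.39 without knockout replicate 2. It is also 1 of the 6 proliferation markers, whose sums are given above, and their part in its difference was not tested. Tdp2, which removes trapped topoisomerase II from DNA ends, stood at 4.83, 5.6 and 4.89 TPM in knockout libraries, against 5.76, 6.01 and 6.55 TPM in control libraries (log2 difference −0.22, limma adjusted p = 0.474). Over the 8 genes of the list, Top1 and Top2b included, the median was −0.17, with 2 apart lower on the deposited scale (15.3% of all genes) and 0 after median-of-ratios scaling (9.3% of all genes).

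**Figure D5:**
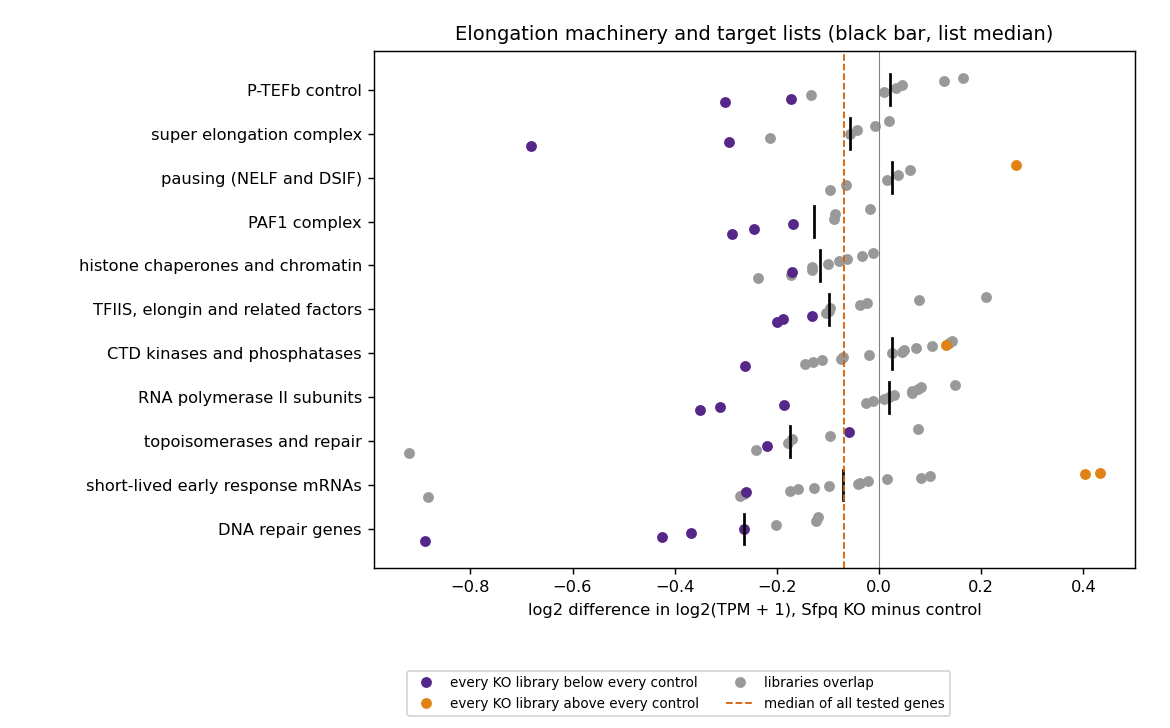
log2 difference between Sfpq knockout and control (x axis) for each tested gene of 11 lists, coloured by whether the 3 knockout libraries lie wholly below, wholly above or overlap the 3 control libraries, with the list median as a black bar. Most points lie near the median of all tested genes (dashed), with Ell2, Top2a, Atf3 and Fancd2 farthest to the left.

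Messages whose synthesis is known to lean on these kinases were listed as well. Short-lived early response mRNAs, which fall quickly when Cdk9 is inhibited in other cells, had a median log2 difference of −0.07 over 16 tested genes, with 1 apart lower and 2 apart higher on the deposited scale and after median-of-ratios scaling. All tested genes had 15.3% lower and 4.27% higher on the deposited scale, and 9.3% and 9.09% after that scaling. Jund, an AP-1 subunit, stood at 65.6, 77.4 and 78.95 TPM in knockout libraries, against 46.3, 59.8 and 61.9 TPM in control libraries (log2 difference 0.40, SE 0.14, limma adjusted p = 0.336). Junb, named because it was the other gene apart higher, stood at 189, 181 and 184 TPM in knockout libraries, against 97.6, 150 and 174 TPM in control libraries (log2 difference 0.43, limma adjusted p = 0.441), and its difference was 0.19 without control replicate 1. Fosl2 was apart lower (log2 difference −0.26, limma adjusted p = 0.403), and Atf3 overlapped between groups at 12.1, 31.6 and 11.3 TPM in knockout libraries, against 26.4, 34.5 and 32.6 TPM in control libraries.

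DNA repair genes, a group known to need Cdk12 in other cells, summed to 12.4 to 14.8 TPM over the 12 listed genes in knockout libraries and to 17.9 to 19.7 TPM in control libraries, and 7 of the 12 passed the filter on low values. All 7 had log2 differences below 0, where 64.5% of all tested genes did, with a median of −0.26 (−0.22 after median-of-ratios scaling). Of the 7, 4 were apart lower on either scale, beside 15.3% and 9.3% of all genes, and 0 passed in limma. Fancd2, a Fanconi anaemia protein, stood at 0.43, 1.16 and 0.81 TPM in knockout libraries, against 2.02, 2.20 and 2.68 TPM in control libraries (log2 difference −0.89, SE 0.19, limma adjusted p = 0.176). It passed that filter through the control libraries, where it was high. The counts and the median of this list include Fancd2, and its place in them is no support for a lower level in knockout. The span of Fancd2 overlaps Emc3 and Fancd2os on the opposite strand. The helicase Blm averaged 1.11 ± 0.150 TPM in knockout and 1.72 ± 0.109 TPM in control libraries (log2 difference −0.37, limma adjusted p = 0.343). Many of these genes are most active in dividing cells. The 6 proliferation markers summed to 3.34 to 13.8 TPM in knockout and 15.2 to 20.5 TPM in control libraries, and their part in the DNA repair values was not tested. The Cdk12 message itself overlapped between the genotypes, and its part in the DNA repair values was not tested either.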

How the data were processed

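The authors deposited TPM for each RefSeq accession in each library. STAR 2.4.1d and the mm10 genome are named, per the submitters' processing notes, and the sources used here do not give the counting tool, annotation release or strand use. Of 34671 accessions 30822 were named from RefSeq (GRCm38.p6) and 103 from GENCODE. The other 3746, with 1.19% to 1.27% of TPM, kept their accession. TPM was summed per symbol, which joined accessions for 14 symbols and none of the 10 elongation genes, so their transcripts cannot be told apart. Genes that reached a TPM of 1 in 3 or more libraries entered limma 3.58.1 (R 4.3.3) as log2(TPM + 1), with an intensity trend, 2-sided, Benjamini-Hochberg at 0.05. This scale understates changes of low genes. The same fit was run on accessions. The fit was tested on simulated data.

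The members and gene lists were chosen with earlier results of these data known. The text names all members, and from each list the up to 3 genes with the smallest p at a mean TPM of at least 1, the 3 genes nearest to Cdk9 in profile, and genes said to be picked after their values were seen. Supt4a is named as partner of Supt5. Alternatives covered the pseudocount (0.1 and 5), the filter, scaling, moderation, a block and each library left out. Some genes that this rule names are not reported here.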

Additional observations from a re-analysis of the deposited data

How the results depend on the processing

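Over 15 alternatives for each of the 10 elongation genes, 0 of 160 values (the reported ones included) passed the limma test, and the smallest adjusted p was 0.352. Directions changed for 3 genes that lay near 0. Cdk12 was at 0.047 after median-of-ratios scaling and 0.082 after quantile normalization, and with 1 library left out it ran from −0.070 (without control replicate 3) to 0.084 (without control replicate 2). Ccnk was at 0.024 and 0.0051 after these scalings. Top1 ran from −0.072 (without control replicate 1) to 0.20 (without control replicate 2). The accession fit gave the same values, to 2 digits, for these 3 transcripts. Among other genes, Nelfb was at 0.0047 after median-of-ratios scaling. With 1 library left out Nelfa ran from −0.18 to 0.020 and Supt4a from −0.019 to 0.11. Hexim1 ran from −0.080 to 0.063 with 1 library left out. Without 1 library the size also moved by over 1.5 times for Larp7 (0.10 without control replicate 1), Ash1l (−0.12 without control replicate 2), Eaf1 (−0.13 without knockout replicate 1), Chd1, Tcea1 and Fosl2 (−0.09, −0.13 and −0.16 without knockout replicate 3) and Atf3 (−1.34 without knockout replicate 2).
Calls over all genes, 0 higher and 0 lower as reported, were 2 and 11 with a pseudocount of 5, 9 and 15 with no filter, 1 and 6 at a mean TPM of at least 5, and 1 and 1 without the trend, with the same counts over accessions. The counts at an unadjusted p under 0.05 were 334 higher and 1199 lower as reported, and 702 and 729 after median-of-ratios scaling. The count of elongation genes apart between groups was 0 lower and 2 higher after either scaling. With 1 library left out it ran from 2 to 4 lower, reaching 4 without control replicate 1, and from 0 to 2 higher, reaching 2 without control replicate 2. Leaving out a library can only keep or raise this count, and the matching share over all tested genes was not computed. For the log2 ratios, Ccnt1 over Ccnt2 ran from −0.080 to 0.10 with 1 library left out and Supt5 over Supt4a from −0.064 to 0.026, and the other 4 ratios kept their direction.
With the replicate number as a block 0 genes were called higher and 0 lower, with 224 higher and 835 lower at an unadjusted p under 0.05, and the smallest p that a block allows for a ratio is 0.25. No label says whether the numbers pair the libraries. Deviations from the group means correlated at −0.26, −0.247 and 0.0487 for numbers 1, 2 and 3, and no library correlated best with its own number. With 3 libraries in each group these correlations cannot settle whether the numbers mark pairs. The depth is unknown, so the counting error of low genes such as Cdk12 cannot be given.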
